A study of Mus musculus with 9 samples.

Results

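The genes described here encode enzymes that oxidise, conjugate and clear foreign and endogenous small molecules: cytochromes P450 (Cyp), flavin-containing monooxygenases (Fmo), epoxide hydrolases (Ephx), alcohol and aldehyde dehydrogenases (Adh, Aldh), glutathione transferases (Gst) and UDP-glucuronosyltransferases (Ugt). They were chosen by gene symbol from the array's probe annotation, keeping probe sets that carry a single symbol, and no measured value decided membership. The families themselves were proposed with earlier results of these arrays known. In all, 74 genes with 99 probe sets belong to them, out of 12422 probe sets that are not controls. Of these, 52 probe sets for 39 genes were bright enough to be tested. Another 8 probe sets that carry a family symbol together with other symbols, among them those of the Ugt1a cluster, were left out.

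The samples were total RNA from lungs of C57BL6 mice in a model of asthma induced with ovalbumin (OVA), an egg-white protein used as the allergen. There were 3 groups of mice with 3 arrays each: a saline challenge, an OVA challenge, or an OVA challenge combined with an agonist of EP3, one of the prostaglandin E2 receptors. They are called the saline, OVA and agonist arrays here, with the replicate number of their titles. The titles of both OVA-challenged groups carry a time of 24 h. The sources used here do not name the agonist, its dose or timing, the age or sex of the mice, or how the saline group was sensitised. Whether each array is a mouse of its own is not stated, so the p-values measure the spread between these samples, which may be technical.

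In the lung several of these enzymes are known from the club cells of the bronchioles, which carry several P450s and activate inhaled toxicants, and many members are also expressed in other lung cells and in the liver. Oxidation by a P450 or an Fmo is commonly followed by hydrolysis of epoxides, oxidation of aldehydes or conjugation to glutathione or glucuronic acid. The aryl hydrocarbon receptor drives part of the Cyp genes through xenobiotic response elements. The factor NRF2 drives part of the Gst genes through antioxidant response elements.

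Intensities are on a common scale, reached with 1 factor per array (0.741 to 1.29). An intensity of 44.7, the 40th percentile of all values, was taken as the detection limit, and testing required 3 or more of the 9 arrays above it. Between 59.6% and 60.6% of the probe sets of an array lay above it. Changes are differences of group means on the log2 scale, tested with limma on all 9 arrays, with Benjamini-Hochberg adjustment across all 7920 tested probe sets and a threshold of 0.05. Intensities of different probe sets are not comparable with each other. Agonist replicate 3 stood apart from the other agonist arrays: the summed intensity of 6 goblet cell probe sets was 7211 on it, against 1228 and 1591 on agonist replicates 1 and 2 and 8049 to 9585 on the OVA arrays.

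For OVA against saline, 3 upstream sequences are shown to set the called genes beside the motifs named above. Cyp2f2 was the lower member with the smallest p, Cyp2b10 held the xenobiotic core and Gsta3 the antioxidant core. The 250 bases before the RefSeq start (GRCm38.p6, plus strand, 5′ to 3′) are printed, at chr7:27119705-27119954 for Cyp2f2, chr7:25897408-25897657 for Cyp2b10 and chr1:21240335-21240584 for Gsta3. Capitals mark the core GCGTG, on either strand (CACGC is its reverse complement), or the core TGACNNNGC.
Cyp2f2: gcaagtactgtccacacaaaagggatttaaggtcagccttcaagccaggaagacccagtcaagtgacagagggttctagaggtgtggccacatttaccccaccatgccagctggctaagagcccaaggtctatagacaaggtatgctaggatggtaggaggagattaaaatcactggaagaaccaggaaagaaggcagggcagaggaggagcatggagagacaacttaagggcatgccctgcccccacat
Cyp2b10: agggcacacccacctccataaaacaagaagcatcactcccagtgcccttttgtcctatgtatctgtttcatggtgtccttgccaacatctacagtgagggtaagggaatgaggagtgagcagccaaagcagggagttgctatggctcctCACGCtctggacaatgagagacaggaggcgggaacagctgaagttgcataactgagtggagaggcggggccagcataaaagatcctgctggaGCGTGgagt
Gsta3: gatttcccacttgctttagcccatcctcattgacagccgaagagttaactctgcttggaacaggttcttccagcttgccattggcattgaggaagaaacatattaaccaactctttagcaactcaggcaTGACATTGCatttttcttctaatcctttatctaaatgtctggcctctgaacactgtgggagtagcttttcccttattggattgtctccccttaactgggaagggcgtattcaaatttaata

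Cyp2b10 held GCGTG at 101 and at 9 bases before its start, and Gsta3 held TGACNNNGC at 121 bases before. In these upstream stretches no match of one motif overlapped a match of the other, and neither motif was found in the Cyp2f2 window. Searched over both strands of the 250 bases before and 50 bases after a start, GCGTG was present for 9500 of 27025 genes of the RefSeq promoter table (35.2%). It was present for 17 of the 58 members with an entry (29.3%) and for 12 of the 30 of these that were tested (40%). Of the 10 members with an entry that were lower in OVA, 2 held it (20%). TGACNNNGC was present for 14% of all genes, 10.3% of the members and 1 of those 10. These matches are descriptions of letters in a window and no measure of binding.

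After OVA challenge 12 of the 52 tested probe sets were lower than in saline, each of a different gene: the P450s Cyp2e1, Cyp2f2, Cyp3a13, Cyp2b10 and Cyp4b1, the glutathione transferases Gstm3, Gsta3, Gstm1 and Gstm2, the dehydrogenases Aldh2 and Aldh1a1, and the monooxygenase Fmo1. Another 2, Gsto1 and Cyp7b1, were higher. The other 38 did not pass. The 12 lower probe sets are 23.1% of those tested, beside 4.42% of all tested probe sets called lower, and the 2 higher ones 3.85%, beside 5.08% called higher. The median log2 change was -0.31 over the members and -0.09 over all tested probe sets. Unadjusted, 23 members were lower and 3 higher at p under 0.05, counts given without a share over all tested probe sets. In whole-lung RNA, fewer cells of a type and less RNA per cell cannot be told apart.

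**Figure D1:**
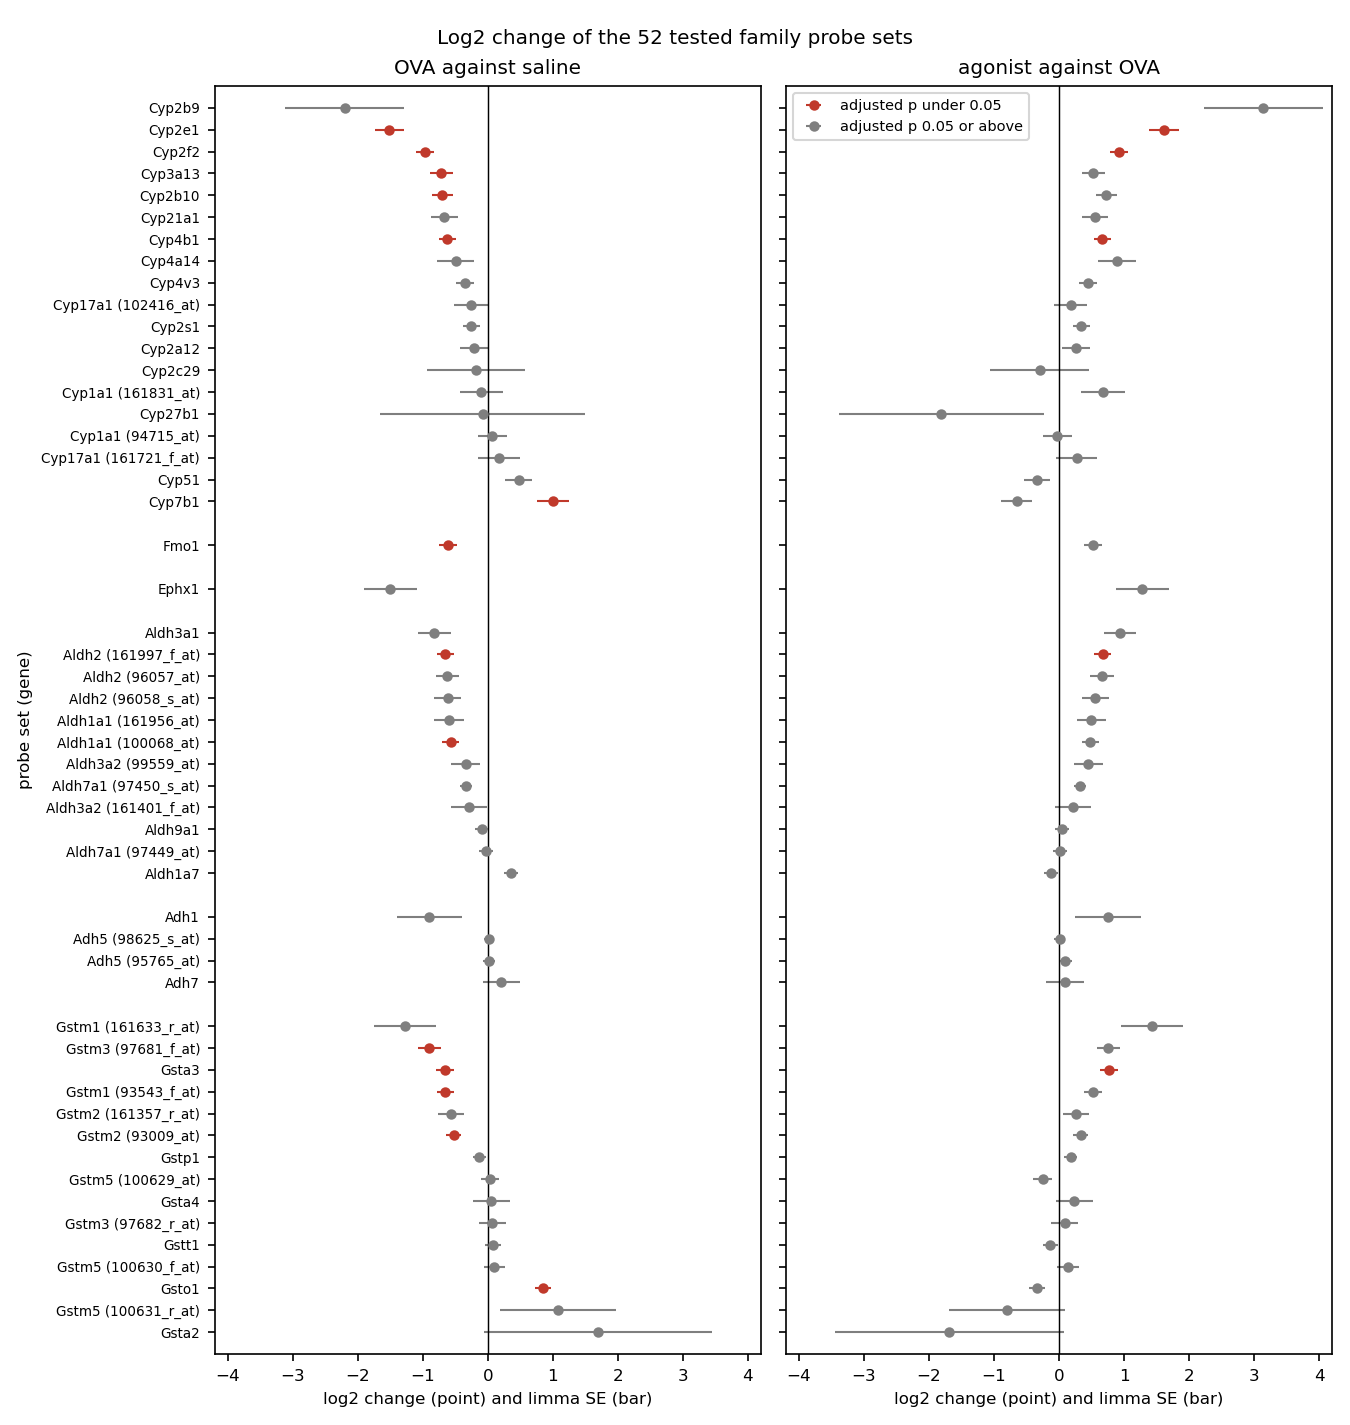
Log2 change (point) and limma standard error (bar) of the 52 tested probe sets, OVA against saline on the left and agonist against OVA on the right, grouped by enzyme family. Red points passed an adjusted p of 0.05: 12 lower and 2 higher on the left, 5 higher and 0 lower on the right.

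How firmly these counts stand depended on single arrays. Without saline replicate 1, 2 or 3 the count of lower members was 2 each time, without OVA replicate 1 or 2 it was 0, and without OVA replicate 3 it was 15. Leaving out agonist replicate 1, 2 or 3, which enter through the shared spread and through the filter for testing, gave 10, 7 and 15. The count of higher members ran from 0 to 2 over the same omissions. Calls over all tested probe sets in these runs are not given here, so the counts describe the members alone. Equal array medians in place of the trimmed mean left 7 lower members, and only 1 of the 12, Cyp2e1, changed by at least 2-fold. The direction of all 14 calls was kept in every omission and alternative run.

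Among the P450s, 17 of 40 genes were tested, with 19 probe sets, of which 5 fell and 1 rose. Cyp2e1, an enzyme of small solvents such as ethanol, read 296.9, 289.1 and 458.1 on the saline arrays, 114.6, 123.5 and 119.3 on the OVA arrays and 300.4, 484.4 and 333.9 on the agonist arrays. The 3 OVA arrays lay below all 6 others and within a narrow range of each other. The log2 change was -1.51 (SE 0.23, adjusted p = 0.0143), a 2.86-fold fall. Cyp2f2, the P450 of club cells that activates naphthalene, read 3359.3, 3880.9 and 3490.6 on saline, 1649.1, 1781.9 and 2070.6 on OVA and 3831.0, 3652.0 and 2948.2 on agonist arrays. OVA arrays were again below every other array, and the log2 change was -0.97 (SE 0.14, adjusted p = 0.0115), a 1.96-fold fall. Both calls held in 7 of 9 omissions and were lost without OVA replicate 1 or 2, with an adjusted p of up to 0.0649 for Cyp2e1 and 0.0531 for Cyp2f2.

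Cyp4b1, which acts on fatty acids and on pneumotoxic compounds, read 3518.3, 3863.1 and 3897.2 on saline, 2293.3, 2369.7 and 2691.7 on OVA and 4535.7, 3895.2 and 3320.2 on agonist arrays. Its log2 change was -0.62 (SE 0.13, adjusted p = 0.0308). Cyp2b10, a target of the receptor CAR in liver, read 1555.9, 1460.2 and 1710.0 on saline, 930.2, 911.3 and 1079.0 on OVA and 1931.2, 1667.7 and 1291.5 on agonist arrays. For this gene the log2 change was -0.70 (SE 0.16, adjusted p = 0.0363). Neither gene had an OVA array that reached the lowest saline or agonist array. Cyp3a13 was dim, at 76.4, 69.0 and 105.1 on saline, 50.7, 44.6 and 55.5 on OVA and 77.2, 77.7 and 62.5 on agonist arrays, and OVA replicate 2 lay below the detection limit. It fell by 0.71 on the log2 scale (SE 0.18, adjusted p = 0.047), a call kept in 1 of 9 omissions. The calls of Cyp4b1 and Cyp2b10 were kept in 3 of 9, lost without any 1 saline array, OVA replicate 1 or 2 or agonist replicate 2, with an adjusted p of up to 0.108 and 0.12. Without an array other than agonist replicate 3, the adjusted p of Cyp3a13 rose to as much as 0.13. Other settings ended its call too: quantile normalization (adjusted p = 0.0573), equal medians (0.0598), no filter (0.0724) and a fit of only the 6 arrays compared (0.0666). Cyp2b10 missed with equal medians (0.0506) and with no filter (0.0552).

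Cyp7b1, an oxysterol 7-alpha-hydroxylase, moved the other way. Its brighter probe set read 73.9, 100.7 and 48.4 on saline, 149.4, 147.9 and 130.2 on OVA and 80.1, 100.7 and 91.7 on agonist arrays, so the OVA arrays were the highest. The log2 change was 1.00 (SE 0.25, adjusted p = 0.045), and it passed in 1 of 9 omissions, that of saline replicate 2, with an adjusted p of up to 0.139 in the others. It missed with no filter (adjusted p = 0.0763) and in a fit of the 6 arrays compared (0.0729). A second Cyp7b1 probe set was above the limit on 2 arrays and was not tested. Cyp2b9, a relative of Cyp2b10, had the lowest log2 change of the family, -2.20 (SE 0.92, adjusted p = 0.159). That number comes from values near or under the limit: 13.2, 50.1 and 32.5 on saline, -11.8, -17.2 and 23.1 on OVA and 107.9, 53.9 and 26.2 on agonist arrays. Held at the limit, the change was -0.06. Cyp27b1, which makes active vitamin D, was at 70.3, 81.3 and -7.4 on saline and 69.0, 33.7 and 6.5 on OVA arrays, which overlapped fully. The other tested P450 probe sets ran from -0.67 (Cyp21a1, adjusted p = 0.0808) to 0.47 (Cyp51, adjusted p = 0.172).

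Fmo1, which oxygenates nitrogen and sulfur in drugs, was the only tested member of its family. It read 1697.8, 1634.9 and 1676.4 on saline, 976.1, 1051.4 and 1264.0 on OVA and 1698.6, 1742.0 and 1304.5 on agonist arrays. All OVA arrays were below the rest, with a log2 change of -0.61 (SE 0.14, adjusted p = 0.038). That call was kept in 3 of 9 omissions, and without a saline array, OVA replicate 1 or 2 or agonist replicate 2 the adjusted p was up to 0.127. Equal medians (adjusted p = 0.0516) and no filter (0.0549) ended it as well. Ephx1, the microsomal epoxide hydrolase, read 727.9, 477.4 and 738.7 on saline, 192.1, 159.3 and 369.9 on OVA and 756.3, 647.9 and 331.4 on agonist arrays. Its OVA and saline arrays did not overlap, but the spread within the groups was wide and the log2 change of -1.50 (SE 0.41) missed the threshold, with an adjusted p of 0.0594.

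**Figure D2:**
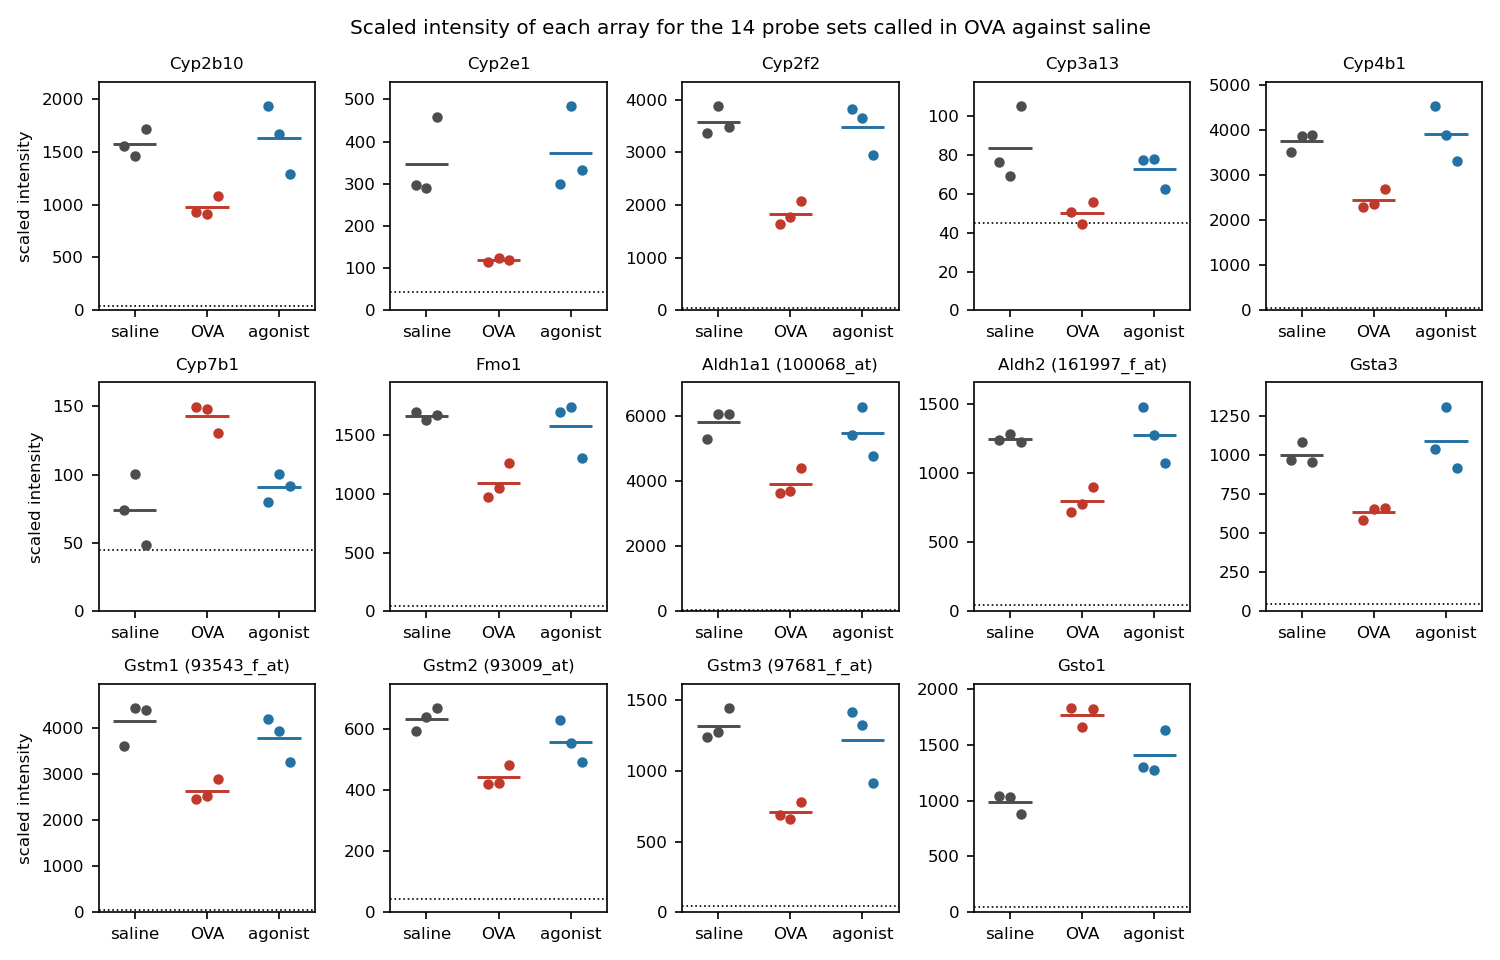
Scaled intensity (linear axis from 0) of every array for the 14 probe sets called in OVA against saline. Points are arrays, bars the mean of 3, and the dotted line the detection limit of 44.7. The OVA arrays lie below all saline arrays for 12 probe sets and above them for Cyp7b1 and Gsto1. Over all tested probe sets they lie below for 22% and above for 15.5%, and the 14 were picked by this same comparison.

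Aldehyde dehydrogenases had 12 tested probe sets for 7 of 10 genes, of which 2 fell. Aldh1a1, a retinaldehyde dehydrogenase found in club cells, read 5314.5, 6065.0 and 6057.7 on saline, 3650.4, 3707.4 and 4420.4 on OVA and 5435.0, 6286.9 and 4782.0 on agonist arrays by its brighter probe set. The log2 change was -0.57 (SE 0.13, adjusted p = 0.038). The dimmer Aldh1a1 probe set changed by -0.60 (SE 0.23, adjusted p = 0.132) and did not pass. Aldh2, the mitochondrial enzyme that clears acetaldehyde, has 3 probe sets, of which the called one read 1236.8, 1279.8 and 1227.6 on saline, 719.5, 774.4 and 900.0 on OVA and 1478.4, 1272.6 and 1073.8 on agonist arrays. Its log2 change was -0.65 (SE 0.14, adjusted p = 0.0306), beside -0.62 (adjusted p = 0.0681) and -0.61 (adjusted p = 0.0967) for the other two, so the sizes were alike and only the calls differed. Without a saline array, OVA replicate 1 or OVA replicate 2 both calls were lost, with an adjusted p of up to 0.128 for Aldh1a1 and 0.105 for Aldh2. Aldh1a1 also missed without agonist replicate 1, under quantile normalization, with equal medians and without the filter.

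Aldh3a1, an aldehyde dehydrogenase abundant in cornea, fell short of the threshold at a log2 change of -0.82 (SE 0.25, adjusted p = 0.0787), from 96.6, 109.6 and 82.9 on saline to 62.1, 45.2 and 56.9 on OVA arrays. The groups did not overlap. Aldh1a7, the closest relative of Aldh1a1 and its neighbour in RefSeq on chromosome 19, was singled out after its values were seen: it lay at 0.36 (SE 0.11, adjusted p = 0.0812), the opposite sign to Aldh1a1. The difference between both genes was not tested.

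Alcohol dehydrogenases gave no call in 4 probe sets of 3 genes. Adh1, which oxidises ethanol and retinol, read 512.3, 349.1 and 321.2 on saline, 146.5, 153.8 and 394.8 on OVA and 460.4, 512.3 and 181.9 on agonist arrays. OVA replicates 1 and 2 and agonist replicate 3 were low and the others high, so the groups overlapped, with a log2 change of -0.90 (SE 0.51, adjusted p = 0.279). Adh5, the glutathione-dependent formaldehyde dehydrogenase, stayed within 257.3 to 324.5 by its dimmer probe set and within 382.9 to 429.0 by its brighter one over the 9 arrays, with log2 changes of 0.02 for both (SE 0.10 and 0.08, adjusted p = 0.912 and 0.903). Adh7 changed by 0.21 (SE 0.29, adjusted p = 0.671).

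Glutathione transferases had 15 tested probe sets for 10 of 13 genes, and 4 fell while 1 rose. Gstm3, of the mu class, read 1238.5, 1276.4 and 1445.0 on saline, 690.2, 658.4 and 779.1 on OVA and 1414.8, 1326.2 and 914.7 on agonist arrays by its called probe set. The log2 change was -0.90 (SE 0.17, adjusted p = 0.0252), a 1.86-fold fall. Its other tested probe set did not move with it: 703.4, 803.2 and 462.4 on saline, 684.7, 678.7 and 650.2 on OVA, a log2 change of 0.07 (SE 0.21, adjusted p = 0.848). Gstm1, the main mu-class enzyme of liver, read 3614.8, 4435.1 and 4386.2 on saline, 2464.5, 2532.4 and 2887.2 on OVA and 4186.3, 3929.0 and 3261.4 on agonist arrays, a log2 change of -0.66 (SE 0.13, adjusted p = 0.0291). Gstm2 changed by -0.52 (SE 0.12, adjusted p = 0.035), from 596.0, 638.9 and 669.8 to 421.5, 422.7 and 484.1. The dimmer probe sets of both genes pointed the same way and missed, at -1.27 (adjusted p = 0.127) for Gstm1 and -0.56 (adjusted p = 0.112) for Gstm2. In all 3 mu-class genes the calls were lost without any 1 saline array or OVA replicate 1 or 2, with an adjusted p of up to 0.0925 for Gstm3, 0.1 for Gstm1 and 0.119 for Gstm2, which also missed without agonist replicate 2 and with equal medians.

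These mu-class genes lie side by side on chromosome 3 in RefSeq, in the order Gstm5, Gstm6, Gstm3, Gstm2 and Gstm1, with at most 1 other protein-coding gene between any pair of neighbours. This run held the most lower calls of 15 runs of neighbouring members. The run from Cyp2s1 to Cyp2f2 on chromosome 7 had 2 of 5 tested genes lower. That from Adh7 to Adh5 on chromosome 3 had 0 of 3. Of the 4 tested genes of the mu-class run, 3 were called lower. Gstm5 was not: its 3 tested probe sets changed by 0.03 (adjusted p = 0.894), 0.10 (adjusted p = 0.715) and 1.08 (adjusted p = 0.455), the last resting on saline replicate 1, which read 13.6 against 97.3 and 105.0. The mu-class sequences are close relatives, and probe sets whose identifiers end in _f_at, which include the called ones of Gstm1, Gstm3, Cyp4b1, Aldh2 and Cyp7b1, mark probes shared within a gene family in the manufacturer's naming. Their signal may therefore hold more than 1 gene.

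Gsta3, an alpha-class transferase, read 966.8, 1081.6 and 955.8 on saline, 585.7, 657.5 and 664.0 on OVA and 1041.3, 1307.2 and 918.9 on agonist arrays, a log2 change of -0.66 (SE 0.14, adjusted p = 0.0313). It was lost without any 1 saline or OVA array, with an adjusted p of up to 0.11. Gsto1, of the omega class, which reduces dehydroascorbate and arsenic compounds, rose: 1041.8, 1032.6 and 876.7 on saline, 1826.8, 1659.0 and 1819.7 on OVA and 1302.4, 1276.3 and 1634.0 on agonist arrays. The OVA arrays were all above the agonist arrays and these all above the saline arrays. Its log2 change of 0.85 (SE 0.13, adjusted p = 0.0135) was lost only without OVA replicate 1 (adjusted p = 0.0627) among the omissions. Gsta2 could not be read: with saline replicate 3 at -55.8 and agonist replicate 1 at -56.7 beside values of 62.9 to 151.5 on the other 7 arrays, its log2 change was 1.69 with an SE of 1.76 (adjusted p = 0.56). The pi-class Gstp1 and the theta-class Gstt1 changed by -0.13 (adjusted p = 0.453) and 0.08 (adjusted p = 0.702).

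Ugt genes gave no value: all 3 probe sets (Ugt2b34, Ugt2b5 and Ugt8a) were below the limit on every array. Altogether 47 family probe sets were not tested, and 41 of them exceeded the limit on no array. They include P450s known from the liver, such as Cyp7a1, Cyp8b1, Cyp3a11 and Cyp1a2. Among the other 6 the brightest value was 244.5, of Cyp2c38, which exceeded the limit on 2 arrays.

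With the agonist, 5 members were higher than with OVA alone: Cyp2e1, Cyp2f2, Cyp4b1, Gsta3 and Aldh2. That is 9.62% of the 52 tested, beside 1.25% of all tested probe sets called higher. No member was called lower by limma, beside 1.5% of all tested probe sets, and no other tool was run. At an unadjusted p under 0.05, 2 members were lower and 23 higher, again without a share over all tested probe sets. The median log2 change was 0.33 over the members and 0.06 over all tested probe sets. This comparison uses the same OVA arrays as the one above, so the same OVA values enter both.

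Cyp2e1 differed by 1.62 on the log2 scale (SE 0.23, adjusted p = 0.0356), 3.06-fold, and Cyp2f2 by 0.92 (SE 0.14, adjusted p = 0.0356), 1.89-fold. Gsta3 followed at 0.76 (SE 0.14, adjusted p = 0.0424), Aldh2 at 0.67 (SE 0.14, adjusted p = 0.0491) and Cyp4b1 at 0.67 (SE 0.13, adjusted p = 0.0455). In each of the 5 called probe sets every agonist array was above every OVA array, as in 17.8% of all tested probe sets. The other Aldh2 probe sets missed, at 0.66 (adjusted p = 0.0829) and 0.56 (adjusted p = 0.153), the last with overlapping arrays. Just outside the threshold lay Cyp2b10 at 0.73 (SE 0.16, adjusted p = 0.0557) and Gstm3 at 0.76 (SE 0.17, adjusted p = 0.0593), followed by Gstm1 at 0.53 (adjusted p = 0.0737). Fmo1 (0.52, adjusted p = 0.0829), Aldh1a1 (0.48, adjusted p = 0.0838), Ephx1 (1.28, adjusted p = 0.114), Aldh3a1 (0.94, adjusted p = 0.0808), Gstm2 (0.33, adjusted p = 0.137) and Cyp3a13 (0.53, adjusted p = 0.128) did not pass. Gsto1 stood at -0.34 (SE 0.13, adjusted p = 0.153) and Cyp7b1 at -0.65 (SE 0.25, adjusted p = 0.159).

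The 5 calls depended on single arrays as well, and the counts below are again given without those over all tested probe sets. Without agonist replicate 3 the count was 11, without OVA replicate 3 it was 4 and without saline replicate 3 it was 1. These counts include members outside the 5. Of the 5, only Cyp2e1 and Cyp2f2 kept their calls without OVA replicate 3, and only Cyp2e1 without saline replicate 3. Gsta3, Cyp4b1 and Aldh2 kept theirs only without agonist replicate 3. Leaving out any 1 of the other 6 arrays gave 0, and the adjusted p then rose to as much as 0.13 for Cyp2e1 and Cyp2f2, 0.147 for Gsta3, 0.167 for Cyp4b1 and 0.173 for Aldh2. A fit of only the 6 arrays compared also gave 0, and no filter on low values gave 2, ending the calls of Aldh2, Cyp4b1 and Gsta3. Equal array medians gave 3, without Aldh2 and Cyp4b1, which also missed with no floor and under quantile normalization, respectively, and only Cyp2e1 changed by at least 2-fold.

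**Figure D3:**
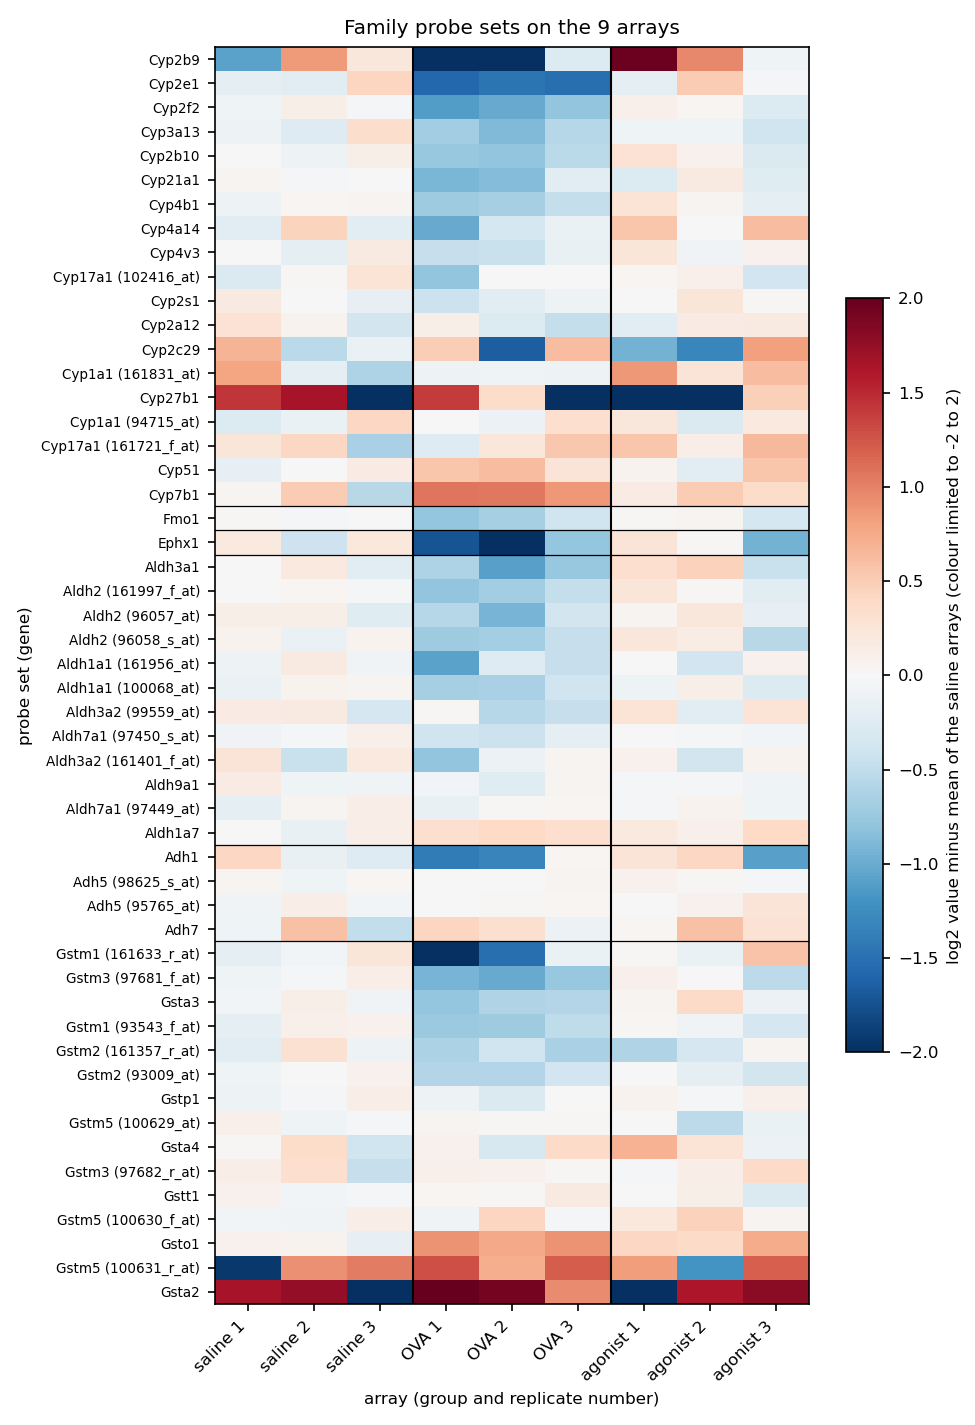
Log2 value of each of the 52 tested probe sets (rows, by family) on each of the 9 arrays (columns), minus the mean of the 3 saline arrays, with the colour limited to between -2 and 2. The rows called lower are blue on the 3 OVA arrays, and agonist replicate 3 is the agonist array nearest to OVA for 11 of those 12.

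Agonist replicate 3 read closest to the OVA arrays for 11 of the 12 lower members (91.7%), and over all 350 probe sets lower in OVA it did so for 215 (61.4%). Cyp2b10 at 1291.5 beside 1931.2 and 1667.7, and Gstm3 at 914.7 beside 1414.8 and 1326.2, are examples. Cyp2e1 is the exception, where agonist replicate 1 was the lowest. The sum of the 12 probe sets was 26561, 26197 and 20704 on agonist replicates 1 to 3, 23472 to 26079 on the saline arrays and 14546 to 17415 on the OVA arrays. The separation of saline and OVA in this sum follows from how the 12 were picked.

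No member differed between the agonist and saline arrays, in either direction, where limma called 0.0379% of all tested probe sets higher and 0.0379% lower. The median log2 difference of the members was 0.04, beside 0.00 over all tested probe sets (-0.003). At an unadjusted p under 0.05 there was 1 member, Gsto1, higher by 0.51 with a 95% interval of 0.22 to 0.80 (adjusted p = 0.409). The share of all tested probe sets at that unadjusted p is not given here. For Cyp2f2 the difference was -0.05 with an interval of -0.36 to 0.27, and for Cyp2e1 0.10 with an interval of -0.43 to 0.63. These intervals leave room for differences of either sign, and a missed threshold does not show equal levels.

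Other genes of the same pathways were taken from lists chosen with earlier results known, with the brightest probe set of each gene, and are given for OVA against saline. None of 8 tested genes of electron supply and heme handling for the P450s, such as Alas1, the first enzyme of heme synthesis, was called. Of 8 receptors and partners of the xenobiotic response, 1 fell, Ppara, the fatty acid receptor of liver, by 0.63 on the log2 scale (adjusted p = 0.0492), a call that every single omission of an array ended (adjusted p of 0.0504 to 0.122). Ahr itself was not called, and Nqo1, a target of both receptor and NRF2, was below the limit. None of 5 retinoid genes passed. Of 10 cholesterol genes 1 rose, Fdft1, squalene synthase, by 0.86 (adjusted p = 0.0155, up to 0.0671 without a saline array or OVA replicate 1 or 2).

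Of 16 tested NRF2 targets outside the families 3 rose, none fell and 13 did not pass, with a median log2 change of 0.05. Over all tested probe sets 5.08% were called higher. Gclc, the catalytic subunit that starts glutathione synthesis, read 538.7, 507.2 and 424.0 on saline, 1037.6, 1076.4 and 811.7 on OVA and 595.2, 669.4 and 702.1 on agonist arrays, a log2 change of 0.99 (adjusted p = 0.0133, up to 0.0627 without OVA replicate 1 or 2). Tkt, the transketolase of the pentose phosphate pathway, rose by 1.11 (adjusted p = 0.00934) in every omission, and Akr1b8, an aldo-keto reductase, by 1.10 (adjusted p = 0.0482, up to 0.14 without a saline array, an OVA array or agonist replicate 1). Tkt was also lower in agonist than in OVA, by -0.74 (adjusted p = 0.0419, up to 0.141 without any 1 array other than agonist replicate 3). Of 20 other conjugating and hydrolysing enzymes 3 fell: Gstk1, the kappa-class transferase, at a log2 change of -0.45 (adjusted p = 0.0415), Sult1d1, a sulfotransferase, at -1.66 (adjusted p = 0.0381) and Pon1, the paraoxonase, at -3.63 (adjusted p = 0.0355). Pon1 read 377.9, 395.9 and 482.4 on saline, 53.5, 8.0 and 87.9 on OVA and 529.2, 420.4 and 213.4 on agonist arrays, all OVA arrays being low. The size of its fall rests on OVA replicate 2, under the detection limit: held at the limit the log2 change was -2.81, and without that array it was -2.60 (adjusted p = 0.0446). All 3 missed the threshold without a saline array, OVA replicate 1 or agonist replicate 2, and Gstk1 and Sult1d1 also without OVA replicate 2, with an adjusted p of up to 0.127 for Gstk1, 0.118 for Sult1d1 and 0.102 for Pon1. Pon1 and Sult1d1 also missed with no filter, as did Akr1b8, Pon1 in a fit of the 6 arrays compared, and Gstk1 with equal medians.

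Cell type markers differed in direction between lists, and their part in the changes of the members was not tested. Of 4 tested club cell markers that are not members, Reg3g, an antimicrobial lectin, rose and 3 did not pass, with a median log2 change of -0.09 over the 4. The sum of 5 probe sets was 10956 to 13934 on saline, 10456 to 13244 on OVA and 12246 to 13804 on agonist arrays. Most of that sum on the saline and OVA arrays was Scgb1a1, the club cell secretoglobin, so it mainly follows a single gene. Scgb1a1 read 10312.6, 13253.2 and 12261.5 on saline and 8738.9, 11450.1 and 9225.3 on OVA arrays. These overlapped, with a log2 change of -0.29 (adjusted p = 0.2). Of 10 endothelial genes 6 fell and of 5 alveolar type 1 genes 4 fell, with summed intensities of 12466 to 12960 and 13704 to 15250 on saline and 8598 to 9735 and 10154 to 11252 on OVA arrays. On agonist arrays those sums were 11530 to 12694 and 13388 to 14650. Macrophage markers rose in 8 of 8 genes, from 1837 to 2023 summed on saline to 6976 to 8571 on OVA arrays, and stood at 2324, 2306 and 3953 on agonist replicates 1 to 3. Goblet cell markers rose in 4 of 5, from 734 to 1003 up to 8049 to 9585.

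Markers of tissues outside the airway also shifted. Heart muscle genes fell in 5 of 9 and adipose genes in 2 of 4, with adipose sums of 657 to 772 on saline, 456 to 517 on OVA and 767 to 1038 on agonist arrays. Liver markers were called in 0 of 3 tested genes, and Alb, the albumin gene, exceeded the limit only on saline replicate 3, at 47.4. The ciliated cell sum overlapped between groups, and of 6 alveolar type 2 genes 1, Sftpb, fell. Of 10 fibroblast genes 3 fell (Inmt, Dcn and Pdgfra), and the 1 tested eosinophil marker, Alox15, rose.

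**Figure D4:**
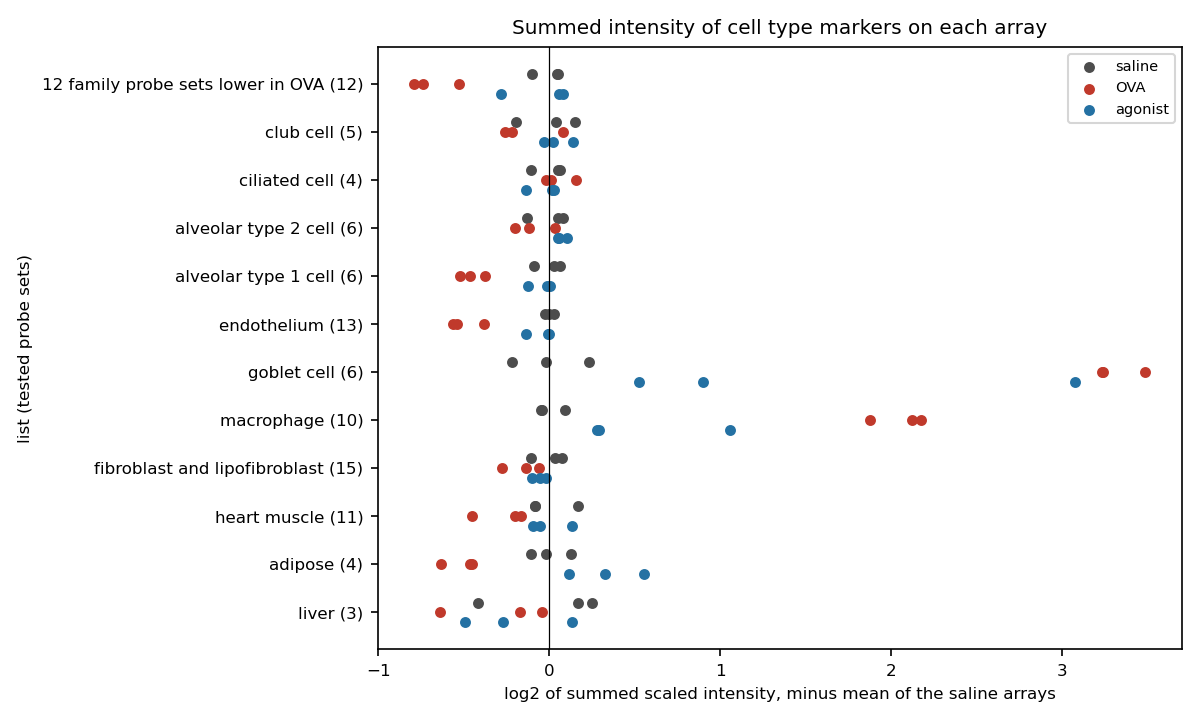
Summed scaled intensity of each cell type's tested marker probe sets that are not members, and of the 12 lower members, on each array, as log2 minus the mean of the saline arrays. The number of probe sets is in brackets. The OVA points of the club cell list, mostly signal of Scgb1a1, overlap the saline points. Those of endothelium and alveolar type 1 cells lie below the saline points, and goblet cell and macrophage points lie above.

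Within replicate numbers the members' median log2 difference of OVA from saline was -0.49, -0.49 and -0.13 for numbers 1, 2 and 3, beside -0.10, -0.07 and -0.06 over all tested probe sets. For agonist and OVA it was 0.59, 0.36 and 0.17, beside 0.07, 0.06 and 0.03. OVA replicate 3 was the OVA array nearest to saline in most of the called genes above, Cyp2f2 at 2070.6 and Fmo1 at 1264.0 among them.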

How the data were processed

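The authors deposited linear intensities, some below 0, with a value for each probe set on each array. The sources used here do not give the scanner, background subtraction or summarization. The table holds 12488 probe sets, of which 66 controls were left out, and 0 columns of other samples. Each array was scaled to the mean of the 9 trimmed means (2% at each end), raised to a floor of 3.1 (the 20th percentile) and put on the log2 scale. A single limma 3.58.1 model (R 4.3.3, lmFit, eBayes) of the 9 arrays had 6 residual and 1.69 prior degrees of freedom, and p-values were adjusted over 7920 probe sets. The number of arrays limits the precision. The procedure was tested on simulated data. Members and lists were chosen with earlier results of these data known. Named genes are those called, the 3 of each family with the largest change for OVA against saline and the 2 for agonist against OVA, and called list genes. All 74 gene IDs were found in RefSeq (GRCm38.p6), used for names, order and promoters; 58 had a promoter entry. Alternatives changed scaling, floor, filter, arrays, threshold and block.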

Additional observations from a re-analysis of the deposited data

How the results depend on the processing

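The 12 lower members in OVA against saline became 7 with equal array medians, 1 with at least 2-fold required and 0 with the replicate block, and ran from 0 to 15 when single arrays were left out. The 2 higher members became 1 in a fit of only the 6 arrays compared, 0 with at least 2-fold required and 0 with the replicate block, and ran from 0 to 2 over omissions. For agonist against OVA, the 5 higher members became 3 with equal medians, 2 with no filter, 8 with a filter at the 60th percentile, 1 with at least 2-fold required, 0 with 6 arrays and 0 with the replicate block, and ran from 0 to 11 over omissions. Every other setting kept these counts within 1.5 times. The 0 lower members in agonist against OVA stayed 0 throughout, as did the 0 in both directions in agonist against saline. All these counts are of members alone, without the share of all tested probe sets called under each setting. Whether numbers pair the arrays was checked by the correlation of deviations: 0.169, 0.112 and 0.035 for OVA and saline, -0.066, 0.007 and -0.049 for agonist and OVA, and -0.03, 0.078 and -0.139 for agonist and saline. The reported model used no pairing. The titles do not say what the number stands for, and these values cannot settle it.

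None of the probe sets that passed changed sign. Among those that did not pass, Cyp27b1 in OVA against saline was 0.54 with no floor, and the brighter Adh5 probe set in agonist against OVA was -0.018 with quantile normalization and -0.004 with equal medians. Over omissions, OVA against saline ran from -0.020 to 0.082 and from -0.026 to 0.041 for the Adh5 probe sets, -0.041 to 0.502 for Adh7, -1.62 to 0.89 for Cyp27b1, -0.004 to 2.57 for Gsta2, -0.164 to 0.235 for the Gstm3 probe set that was not called, and -0.011 to 0.086 and -0.057 to 0.191 for Gstm5. Agonist against OVA ran from -0.019 to 0.035 for the brighter Adh5 probe set, -0.070 to 0.227 for Adh7, -2.59 to 0.017 for Gsta2 and -0.020 to 0.185 for the Gstm3 probe set that was not called. Agonist against saline ran from -0.103 to 0.317 for Cyp2e1 and -0.122 to 0.067 for Cyp2f2, and 22 of 37 other named probe sets, none of them called there, changed sign under at least 1 setting. The cause of these changes was not tested. With 3 arrays a group and signals near the detection limit for genes such as Cyp2b9, Cyp27b1 and Gsta2, those sizes are poorly determined.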
